A study of Mus musculus with 4 samples.

Results

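The replication-dependent histone genes were examined in wild-type mouse embryos and in embryos without nucleoredoxin, a redox protein of the thioredoxin family (gene Nxn, called NRX in the labels). All gene probes whose name in the scanner files begins with Hist1h, Hist2h, Hist3h or Hist4h were taken, with the only probe of H4c9, which the files call Hist1h4i. This gave 44 of the 41174 gene probes and 34 of the 27962 gene names. Of these, 35 probes of 30 gene names passed the filter on dim spots and were tested among 24994 probes, and 9 did not. The groups were NRX-/- (Nxn-null) and NRX+/+ (wild-type) embryos of the strain C57BL/6J, taken at E9.5 or E11.5 (days of embryonic development). Each stage had 2 two-colour Agilent arrays. In replicate 1 the null RNA was labelled with Cy5, and in replicate 2 with Cy3, and stage-matched wild-type RNA took the other dye. The labels leave unsaid whether the dye-swapped arrays used separate RNA extracts, and how many embryos each RNA came from. The p-values then measure only the spread between these arrays, which may be technical, and a p-value for a stage compares the RNAs hybridised and not the genotypes.

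Chromatin wraps DNA around octamers of the core histones H2A, H2B, H3 and H4, and linker histone H1 binds where the DNA enters and leaves them. Most of these proteins are made in S phase from clustered, intronless genes. Their messenger RNAs end in a stem-loop that is bound by the protein Slbp, and they usually carry no poly(A) tail. The RNA here was amplified with an oligo-dT primer, so the probes report what that primer copied, which can include polyadenylated histone transcripts, and not the whole pool of histone RNA. Several histone genes code for nearly the same sequence, and a probe can bind the RNA of more than one of them. Many of the names in the files have changed, and current symbols are given at first mention.

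The promoters of 4 genes are shown because the results turn on them: H4c9 and H2aw (Hist3h2a) differed most between the genotypes at E9.5, H4c4 (Hist1h4d) is another H4 gene that did not show that difference, and H2bu2 (Hist3h2ba) is the neighbour of H2aw that differed most between the stages. Each line gives the 250 bases before the RefSeq start of the gene, 5′ to 3′ on the gene's strand, in build GRCm38.p6. The places are chr13:22041363-22041612 (minus strand) for H4c9, chr13:23581318-23581567 (plus) for H4c4, chr11:58954435-58954684 (plus) for H2aw and chr11:58948661-58948910 (plus) for H2bu2. Capitals mark matches on either strand to any of 4 motifs. These are ATTTGCAT (the octamer known from H2B promoters), the CCAAT box, the TATA box in the form TATAAA, and the core of a site known from H4 promoters, which reads GGTCCG.
H4c9: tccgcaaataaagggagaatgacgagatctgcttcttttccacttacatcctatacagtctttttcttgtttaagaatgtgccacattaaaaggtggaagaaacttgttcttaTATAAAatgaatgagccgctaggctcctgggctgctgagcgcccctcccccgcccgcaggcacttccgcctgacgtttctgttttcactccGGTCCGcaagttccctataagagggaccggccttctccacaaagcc
H4c4: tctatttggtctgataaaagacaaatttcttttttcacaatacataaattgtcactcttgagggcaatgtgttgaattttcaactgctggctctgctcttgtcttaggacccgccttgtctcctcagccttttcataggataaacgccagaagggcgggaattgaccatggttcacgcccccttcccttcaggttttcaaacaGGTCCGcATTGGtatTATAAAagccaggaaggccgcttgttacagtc
H2aw: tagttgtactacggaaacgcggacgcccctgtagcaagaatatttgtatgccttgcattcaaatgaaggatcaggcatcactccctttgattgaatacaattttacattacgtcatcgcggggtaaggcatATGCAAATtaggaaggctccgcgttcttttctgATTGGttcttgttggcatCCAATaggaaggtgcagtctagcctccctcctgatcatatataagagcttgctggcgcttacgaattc
H2bu2: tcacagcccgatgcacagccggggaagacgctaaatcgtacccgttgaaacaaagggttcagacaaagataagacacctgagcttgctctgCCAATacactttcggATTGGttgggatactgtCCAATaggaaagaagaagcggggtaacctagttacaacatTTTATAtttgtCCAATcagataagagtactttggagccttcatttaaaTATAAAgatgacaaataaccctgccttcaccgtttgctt

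Of the 34 genes, 29 had a promoter in the RefSeq table. The octamer was present in 10 of these 29, namely 6 of 11 H2A and 4 of 5 H2B genes, and in no H1, H3 or H4 promoter, against 1.601% of 32851 promoters of the same length. These counts are not of separate promoters throughout. The windows of H2ac1 (Hist1h2aa) and H2bc1 (Hist1h2ba) overlap and hold the same octamer. H2bc6 (Hist1h2be) was counted on a window with the octamer, and its other window lacks it. GGTCCG was present in 4 of the 5 H4 promoters and in no other histone promoter, against 6.718% of all promoters. CCAAT was present in 25 of 29 (33.85% of all) and TATAAA in 16 of 29 (12.37% of all). H4c9 and H4c4 both hold GGTCCG and TATAAA and neither holds the octamer, while H4c4 has 1 match to CCAAT and H4c9 has 0. The place of TATAAA differs, upstream of GGTCCG in H4c9 and between GGTCCG and the start in H4c4. A match is a description of the sequence and not a binding site.

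Hist1h4i (H4c9), a histone H4 gene, was 5.13-fold higher in the Nxn-null than in the wild-type RNA at E9.5. Its normalized log2 intensity was 12.70 and 12.75 in the null channels (replicates 1 and 2) and 10.35 and 10.38 in the wild-type channels. At E11.5 it was 11.63 and 11.71 in the null and 11.55 and 11.56 in the wild-type channels. The null channels lay above the wild-type channels at both stages, far apart at E9.5 and close together at E11.5. The log2 ratio of null over wild type was 2.35 and 2.37 on the arrays at E9.5, a mean of 2.36 ± 0.01 (SD, n = 2 arrays; limma adjusted p = 3.13e-16). At E11.5 it was 0.09 and 0.14, a mean of 0.11 ± 0.04 (limma adjusted p = 0.357). The ratio differed between the stages by -2.24 ± 0.09 (SE; limma adjusted p = 3.23e-13). Among the 24994 tested probes, Hist1h4i had the second highest ratio at E9.5.

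From E9.5 to E11.5 this probe moved in opposite directions in the genotypes. The log2 difference, E11.5 minus E9.5, was 1.19 in the wild-type and -1.05 in the null channels, and it was alike in both dyes (1.18 and 1.20 in wild type, -1.06 and -1.04 in the null). The H4 probe with the next highest ratio at E9.5, Hist2h4, had 0.34. The background signal around the spot was 54 to 62 units in every channel. The uncorrected mean signal of the null and wild-type channels was 11120 and 909.9 units in replicate 1 at E9.5, and 4896 and 1998 units in replicate 2. Averaged over the dyes before any normalization, the E9.5 log2 ratio was 2.45 and the E11.5 ratio 0.02. The probe was designed on an expressed sequence tag, the table's older symbols link it to H4c9, and RefSeq lists the name H4c9 also as an older name of other H4 genes, so which H4 transcripts it binds is uncertain.

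Hist3h2a (H2aw), an H2A gene of the small Hist3 cluster, gave a result that depended on the probe. Probe A_52_P184352 was 2.77-fold lower in the Nxn-null RNA at E9.5. Its log2 intensity was 15.38 and 14.96 in the null and 16.80 and 16.48 in the wild-type channels, so the genotypes did not overlap. At E11.5 the null channels had 16.03 and 15.97 and the wild-type channels 15.74 and 15.88. The log2 ratio was -1.42 and -1.52 at E9.5, a mean of -1.47 ± 0.07 (SD, n = 2 arrays; limma adjusted p = 9.72e-13). The E11.5 arrays gave 0.29 and 0.08 (mean 0.19 ± 0.15, limma adjusted p = 0.0787). The ratio differed between the stages by 1.66 ± 0.09 (SE; limma adjusted p = 5.53e-11). At E9.5 it was the 66th lowest of 24994 ratios. The difference of E11.5 minus E9.5 was -0.83 in the wild-type and 0.83 in the null channels, which gave no call for a stage effect common to both genotypes (limma adjusted p = 0.998).

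Probe A_52_P615375, annotated to the same Hist3h2a transcript, did not show this. Its log2 intensity at E9.5 was 11.20 and 11.30 in the null and 11.18 and 11.20 in the wild-type channels, and at E11.5 it was 12.03 and 12.31 in the null and 12.19 and 12.14 in the wild-type channels. The null channels lay just above the wild-type channels at E9.5, the genotypes overlapped at E11.5, and all channels were higher at E11.5. The ratio of null over wild type at E9.5 was 0.06 ± 0.06 (SD, n = 2 arrays; limma adjusted p = 0.576). The remaining Hist3h2a probe, A_51_P441377, had ratios of 0.28 and -0.42 at E9.5, with opposite signs on the dye-swapped arrays (limma adjusted p = 0.472). The RefSeq table lists this probe's clone under H2bu1-ps, a neighbouring H2B pseudogene, and not under H2aw. A sentence on H2aw in null embryos therefore rests on which probe is read. For probe A_52_P184352, the uncorrected mean signal reached 155500 units without a saturation mark. At E9.5 its uncorrected log2 ratio was 0.14 in replicate 1 and -2.91 in replicate 2, an average over the dyes of -1.39.

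**Figure D1:**
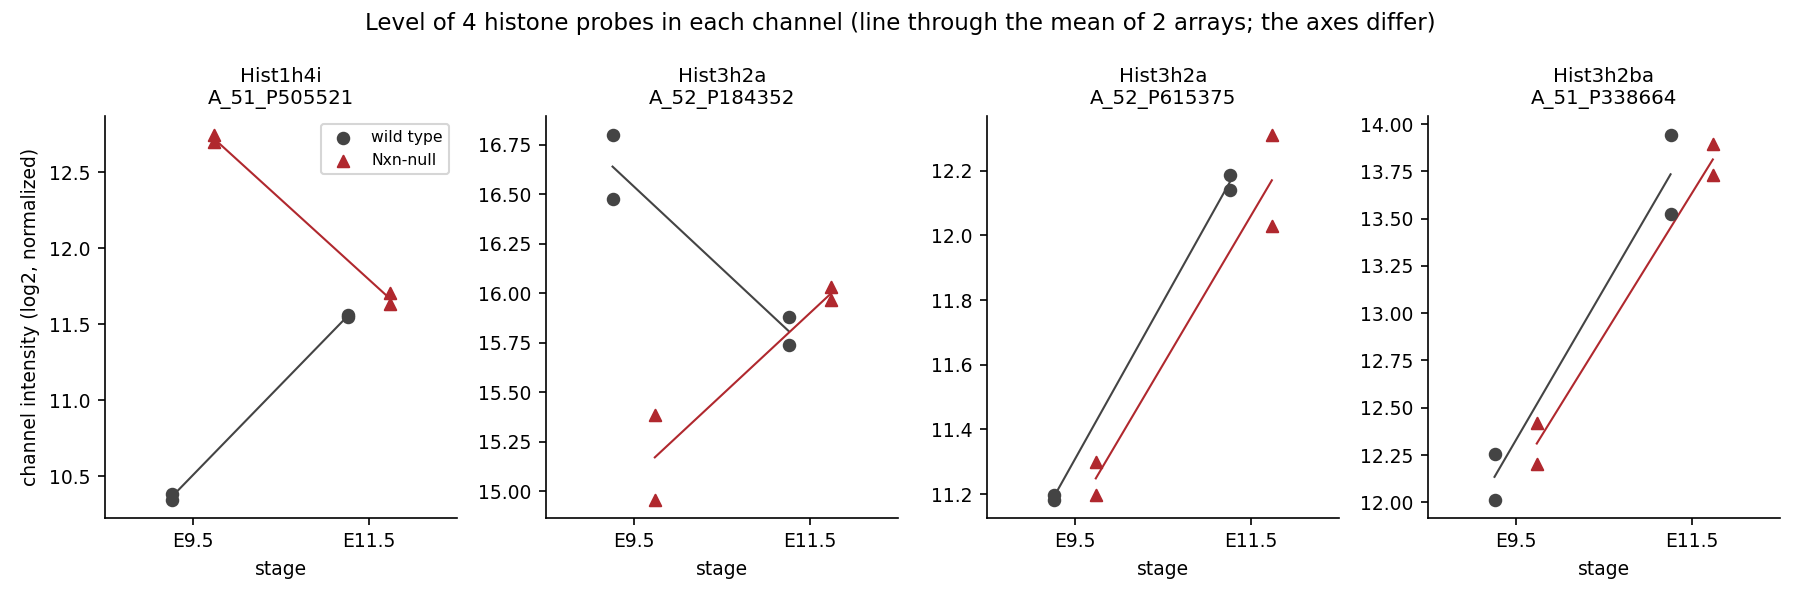
Normalized log2 channel intensity (vertical axis, a separate scale in each panel) of Hist1h4i, 2 probes of Hist3h2a and Hist3h2ba at E9.5 and E11.5, with circles for wild-type and triangles for Nxn-null channels and lines through the mean of 2 arrays. The lines of Hist1h4i and of probe A_52_P184352 run in opposite directions in the genotypes, whereas those of probe A_52_P615375 and of Hist3h2ba rise together.

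At E9.5, 12 of the 35 histone probes (34.3%) had a ratio beyond the array spread, against 22.3% of all tested probes. Array spread is how far the difference between the dye-swapped arrays departed between the stages. What the stages shared of it was removed as a dye effect. The fit then drew each probe's spread towards that of all tested probes, with 18.0 prior against 1 residual degree of freedom. A call thus rests mostly on the pooled spread and little on the probe's own. Of the 12, 7 were higher in the null RNA (8.8% of all probes were) and 5 were lower (13.5% of all). Only Hist1h4i (higher, as were 0.08% of all probes) and Hist3h2a probe A_52_P184352 (lower, as were 0.616%) were at least 2-fold apart, against 0.696% of all probes in either direction. The median ratio was 0.0051 over the 35 histone probes and 0.0041 over all tested probes. On the arrays apart, the histone median was 0.114 in replicate 1 and -0.080 in replicate 2, against 0.014 and -0.023 over all probes, and the class medians of H1 and H4 given below lay on opposite sides of 0. Without the dye term, only those 2 probes were called, against 2.16% of all (0.304% higher and 1.86% lower). The same count of 2 was reached with the log ratio of the scanner software, with the deposited value table, with median centring in place of loess and with each of the 4 arrays left out in turn. Of all probes, 6.15%, 5.19% and 3.68% were called with the log ratio, the value table and median centring, against 5.7% of the histone probes. Fits that leave out an array also lack the dye term, which would take the last residual degree of freedom. Their spread comes from the stage that keeps both arrays, and the lone array is assumed to vary like those, so they add little to the fit without the dye term.

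**Figure D2:**
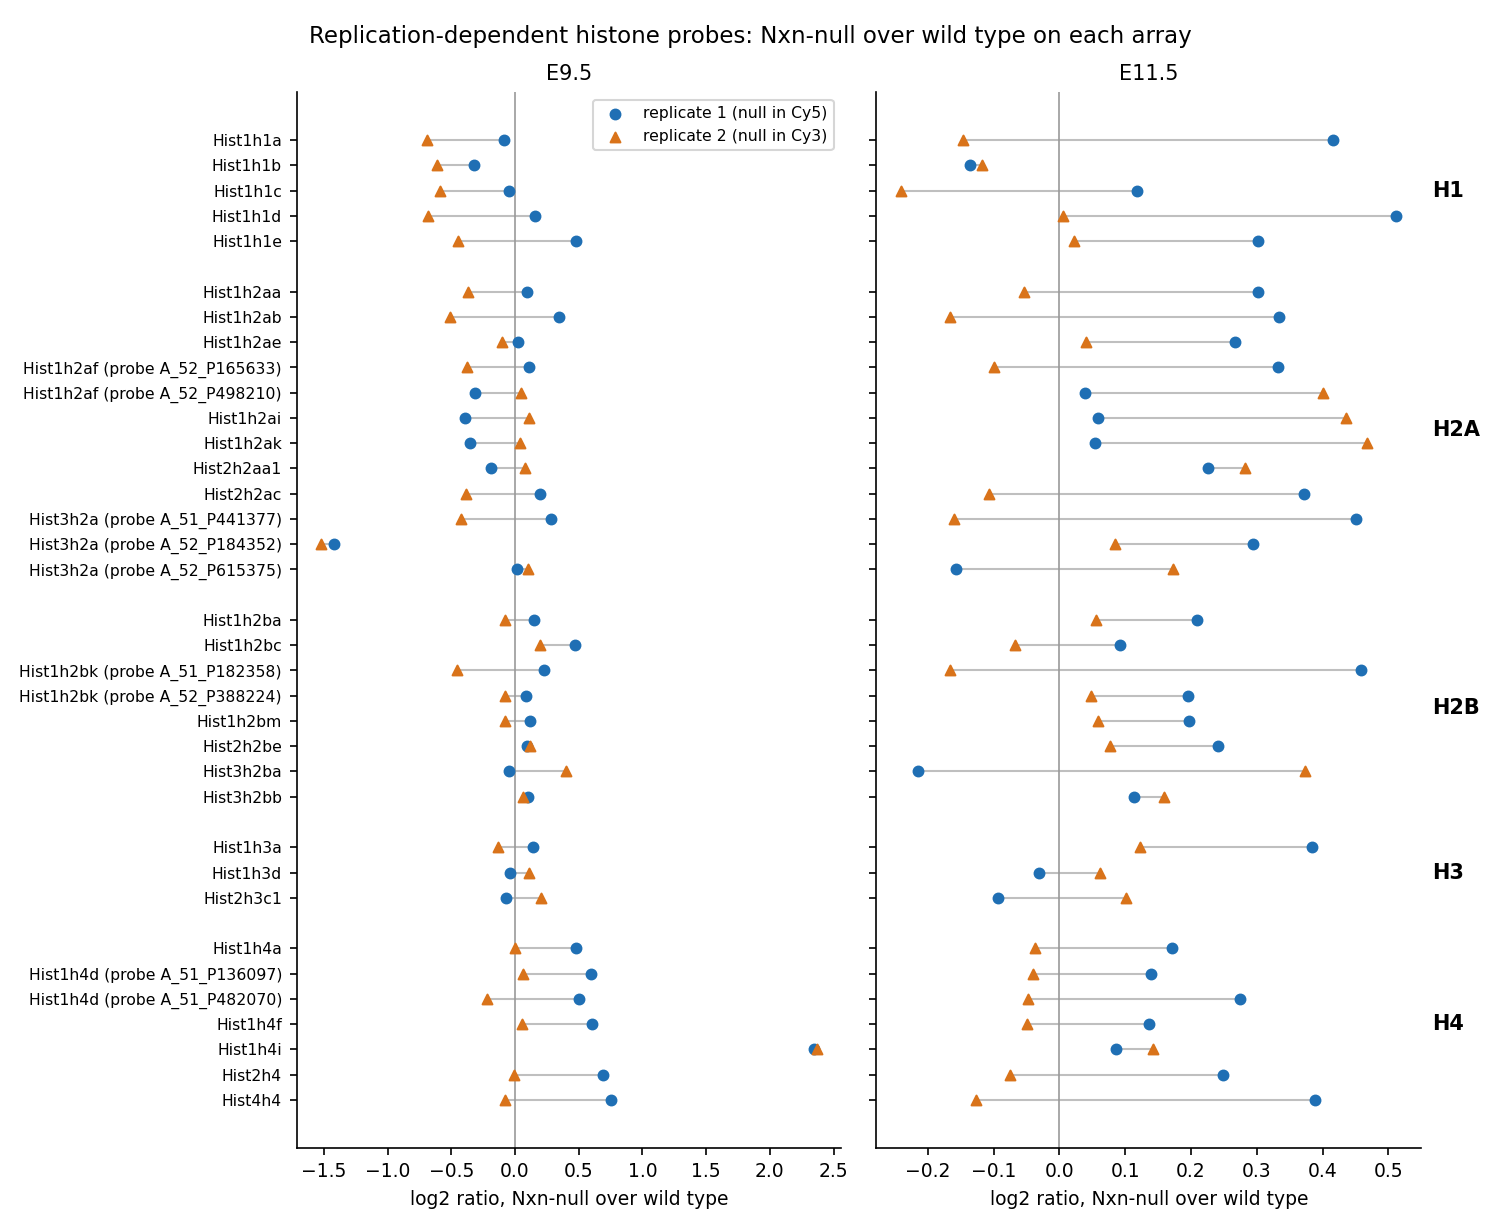
Log2 ratio of Nxn-null over wild type (horizontal axis) of the 35 tested histone probes on each array, E9.5 on the left and E11.5 on the right (the horizontal scales differ), grouped by histone class, with circles for replicate 1 and triangles for replicate 2. At E9.5 Hist1h4i (2.35 and 2.37) and 1 probe of Hist3h2a (-1.42 and -1.52) stand apart on both arrays, and most of the other probes have arrays that lie far apart beside their mean.

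The linker histones were the class with the lowest median at E9.5, -0.32 over 5 probes, of which 4 were called lower (13.5% of all probes were) and none higher (8.8% of all). Hist1h1b (H1f5) had ratios of -0.32 and -0.61, a mean of -0.47 ± 0.20 (SD, n = 2 arrays; limma adjusted p = 3.40e-05). Hist1h1a (H1f1) had -0.08 and -0.69 (mean -0.39, adjusted p = 1.20e-04), and Hist1h1c (H1f2) had -0.05 and -0.59 (mean -0.32, adjusted p = 0.00117). Hist1h1d (H1f3) had 0.16 and -0.68 (mean -0.26, adjusted p = 0.00919). The brightest H1 probe, Hist1h1e (H1f4), had 0.48 and -0.45 and was not called (adjusted p = 0.919). In replicate 2 all 5 were lower in the null, whereas in replicate 1 their ratios ran from -0.32 to 0.48.

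The other H4 probes were on average higher in the null at E9.5, again mostly on 1 array. Hist4h4 (H4f16) had ratios of 0.75 and -0.08 (mean 0.34 ± 0.59, SD, n = 2 arrays; limma adjusted p = 0.00107), and Hist2h4 (H4c14) had 0.69 and -0.0058 (mean 0.34, adjusted p = 0.00122). Hist1h4d probe A_51_P136097 had 0.60 and 0.07 (mean 0.33, adjusted p = 0.00149), Hist1h4f (H4c6), the brightest H4 probe, had 0.60 and 0.05 (mean 0.33, adjusted p = 0.00173) and Hist1h4a (H4c1) had 0.48 and -0.0033 (mean 0.24, adjusted p = 0.0141). With Hist1h4i, 6 of 7 H4 probes were called higher (8.8% of all probes were) and none lower (13.5% of all), and the class median was 0.33. The second Hist1h4d probe had 0.50 and -0.22 and was not called (adjusted p = 0.181). Hist1h4a, Hist2h4 and both Hist1h4d probes gave closely alike profiles over the 8 channels, so these calls may not be separate measurements.

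Replicate 1 gave a higher ratio than replicate 2 for 25 of the 35 histone probes at E9.5, against 14122 of the 24994 tested probes. The median gap between the dye-swapped arrays (replicate 1 minus replicate 2) at E9.5 was 0.27 for the histone probes and 0.041 for all tested probes. The E11.5 gaps were 0.19 for the histone and 0.032 for all tested probes. The gap was 0.61 for H1 and 0.55 for H4 at E9.5. The gap was positive at both stages for 65.7% of histone probes and 43.8% of all probes. Without the dye term the mean ratios were the same and their errors were larger (Hist1h4d A_51_P136097 at 0.33, SE 0.069 with the term and 0.142 without), and of the H1 and H4 calls only that of Hist1h4i remained. The part of the dyes in these ratios was not tested.

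**Figure D3:**
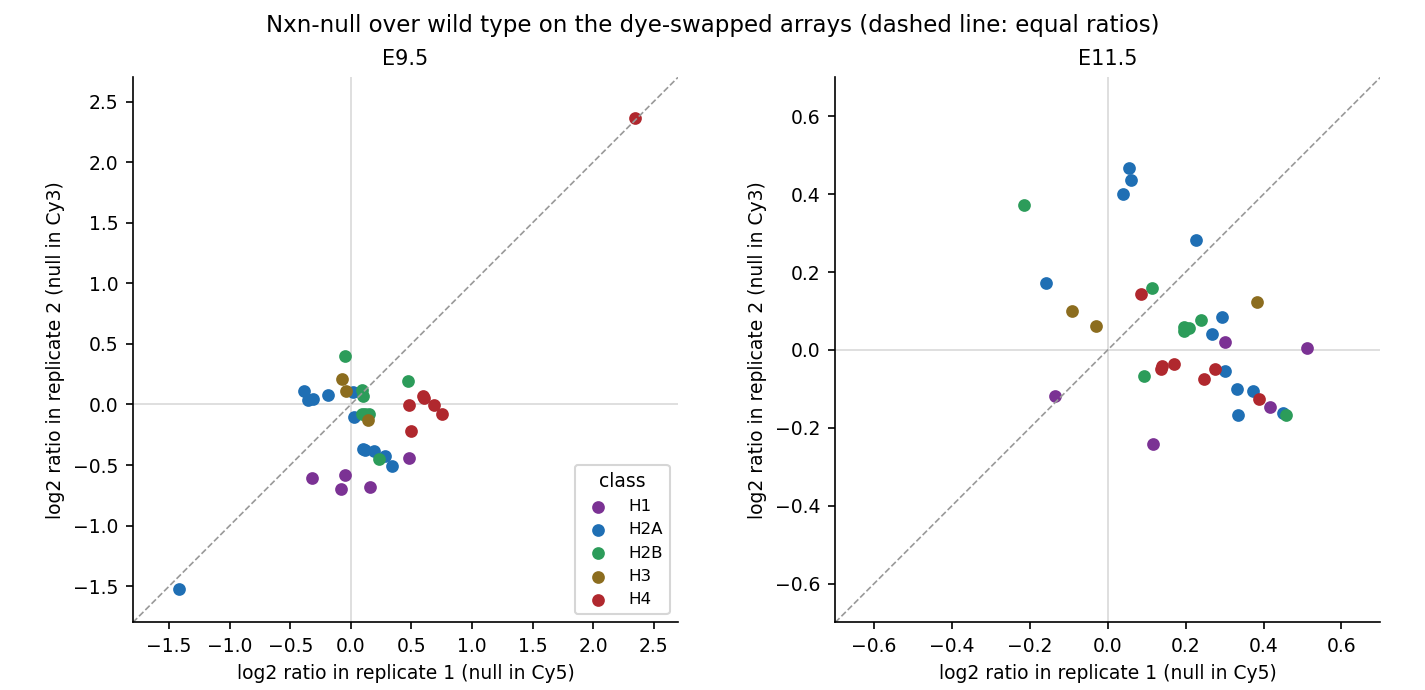
Log2 ratio of Nxn-null over wild type in replicate 1 (horizontal axis) against replicate 2 (vertical axis) for the 35 tested histone probes at E9.5 and E11.5 (the scales differ), coloured by histone class, with a dashed line where the ratios are equal. At E9.5 Hist1h4i and 1 Hist3h2a probe lie near the line far from 0, whereas most H1 and H4 probes lie below it.

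Among the core histones H2A, H2B and H3, 2 further E9.5 points concern named probes. Hist1h2bc (H2bc4), an H2B gene, had ratios of 0.47 and 0.20 (mean 0.33 ± 0.19, SD, n = 2 arrays; limma adjusted p = 6.50e-04), higher on both arrays. The 3 H3 probes had means between 0.0051 and 0.067 and none was called, including the brightest, Hist2h3c1 (H3c14), at -0.07 and 0.21. The brightest H2A probe, Hist1h2af A_52_P165633 (H2ac10), had 0.11 and -0.38 and was not called (adjusted p = 0.151). The 23 histone probes not called at E9.5 had means between -0.16 and 0.18.

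The null and wild-type RNAs differed in markers of other tissues at E9.5, which bears on every ratio from whole embryos. Fewer cells of a type in the material taken and less RNA per cell cannot be told apart. Nxn itself was lower in the null RNA, with an E9.5 log2 ratio of -0.99 and an E11.5 log2 ratio of -1.33. At E9.5 all 6 heart muscle markers, all 7 yolk sac endoderm markers, all 6 primitive red cell markers and all 4 tested of 5 somite and mesoderm markers were called lower in the null RNA, against 13.5% of all probes. Their summed linear intensity in the null against the wild-type channels was 29900 to 35200 against 109000 to 110000 units for heart, 11200 to 14700 against 128000 to 131000 for yolk sac, 223000 to 255000 against 400000 to 447000 for red cells and 7830 to 8160 against 9810 to 10400 for somite and mesoderm. At E11.5 the sums were 82000 to 82700 against 77900 to 80100 for heart, 66100 to 66300 against 66000 to 74400 for yolk sac, 241000 to 327000 against 647000 to 702000 for red cells, and 8500 to 8610 against 8510 to 8720 for somite and mesoderm. Neural tube markers summed to 27700 to 28200 in the null and 23400 in both wild-type channels at E9.5, with Tubb3 (0.53) and Nes (0.27) called higher, Olig2 (-0.19) called lower, 4 of 7 not called and a median ratio of 0.029. Of the placenta markers, 2 of 5 passed the filter, and Tpbpa, Gcm1 and Ctsq did not. Prl3d1 was called higher at E9.5 (1.24 and 0.88, mean 1.06, limma adjusted p = 1.30e-10), and Prl3b1 was not called (0.15). Their sum was 1430 to 1590 units in the null and 952 to 1030 in the wild-type channels at E9.5. At E11.5 it was 683 to 773 and 692 to 723. Of 4 decidua markers, 1 was called higher and 2 lower at E9.5. The higher one, Prl8a2, a relative of prolactin made by decidual cells, had log2 ratios of 2.35 and 2.92 at E9.5 (mean 2.64, limma adjusted p = 8.90e-17), the only one of the 24994 ratios above that of Hist1h4i. At E11.5 Prl8a2 had -0.68 and -0.33 (mean -0.50, adjusted p = 2.02e-05). The summed decidua markers were 3140 to 3170 units in the null and 2830 to 3030 in the wild-type channels at E9.5. The part of these markers in the ratios of Hist1h4i and Hist3h2a was not tested.

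At E11.5, 6 of the 35 histone probes (17.1%) were beyond the array spread, against 8.48% of all tested probes, and all 6 were higher in the null RNA (3.16% of all probes were). None was lower (5.31% of all) and none was 2-fold apart (0.208% of all were). The 6 were Hist1h2ak (H2ac15, ratios 0.05 and 0.47, limma adjusted p = 0.0105), Hist1h1d (0.51 and 0.0053, adjusted p = 0.0204), Hist2h2aa1 (H2ac18, 0.23 and 0.28, adjusted p = 0.0168), Hist1h3a (H3c1, 0.38 and 0.12, adjusted p = 0.0131), Hist1h2ai (H2ac13, 0.06 and 0.44, adjusted p = 0.0171) and Hist1h2af probe A_52_P498210 (0.04 and 0.40, adjusted p = 0.0335). All had the same sign on both arrays. The arrays lay close together for Hist2h2aa1, whereas most of the mean of the others came from 1 array. Hist1h2ak and Hist1h2af A_52_P498210 differed by at most 0.059 over the 8 channels after centring, so they may not be separate measurements. Without the dye term no histone probe was called at E11.5 (1 at an unadjusted p under 0.05), against 0.2% of all (0.056% higher and 0.144% lower), and none was called when 1 of the 4 arrays was left out as well. With a normexp offset of 10, 1 was called, against 5.29% of all tested probes.

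The median histone ratio at E11.5 was 0.128, with 33 of 35 probes above 0, and the median of all tested probes was 0.0052. The mean ratios ran from -0.13 for Hist1h1b to 0.26 for Hist1h2ak. This median was 0.209 in replicate 1 and 0.022 in replicate 2, so it was set mostly by 1 dye orientation.

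The genotype ratio differed between the stages for 10 of 35 probes (28.6%), against 11.7% of all tested probes, 8 of them upwards from E9.5 to E11.5 (7.08% of all) and 2 downwards (4.62% of all). Hist1h4i and Hist3h2a A_52_P184352 had the largest differences. Of the other 8, the linker histones Hist1h1a (0.52, limma adjusted p = 3.75e-04), Hist1h1d (0.52, adjusted p = 9.68e-04) and Hist1h1b (0.34, adjusted p = 0.0253) rose in the null relative to wild type. So did the H2A probes Hist1h2ak (0.42, adjusted p = 0.00325), Hist1h2ai (0.38, adjusted p = 0.00703), Hist1h2af A_52_P498210 (0.35, adjusted p = 0.0121) and Hist2h2aa1 (0.31, adjusted p = 0.0350). Hist1h2bc fell by 0.32 (adjusted p = 0.0242). In the fit without the dye term, only Hist1h4i and Hist3h2a A_52_P184352 were called. The share of all probes called for this difference without the term is not given. For the ratio at E9.5, that share fell from 22.3% to 2.16%, so the drop in calls was not particular to the histone probes.

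No histone probe had a genotype effect shared by the stages in the limma test on the 2 stage averages, in which 0% of all 24994 probes passed either. At an unadjusted p under 0.05 there were 2 histone probes and 1883 of all probes. The ratio had 1 sign on all 4 arrays for 4 of 35 histone probes (11.4%), against 18.3% of all. These were Hist1h4i, Hist2h2be (H2bc21, between 0.08 and 0.24) and Hist3h2bb (H2bu1-ps, between 0.07 and 0.16), all higher in the null, and Hist1h1b, lower (between -0.61 and -0.12).

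From E9.5 to E11.5 the clearest changes were in 3 of the 5 tested Hist3 probes, 1 each of an H2B gene, an H2B pseudogene and the H2A gene. These 3 rose alike in both genotypes. Hist3h2ba (H2bu2), the brightest H2B probe, had a log2 intensity of 12.25 and 12.01 in wild-type and 12.20 and 12.42 in null channels at E9.5, and of 13.94 and 13.52 in wild-type and 13.73 and 13.90 in null channels at E11.5. All 4 channels at E11.5 lay above all 4 at E9.5. It rose by 1.60 in wild type and 1.50 in the null, a mean of 1.55 ± 0.06 (SE, n = 2 genotypes; limma adjusted p = 0.0048), or 2.93-fold. It was the only histone probe at least 2-fold apart between the stages, against 3.04% of all probes (2.22% higher and 0.816% lower).

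Hist3h2a probe A_52_P615375, whose levels are given above, rose by 0.97 in wild type and 0.92 in the null (1.93-fold; limma adjusted p = 0.0054). Hist3h2bb, a transcribed H2B pseudogene, had 12.32 and 12.32 in wild-type and 12.42 and 12.38 in null channels at E9.5, and 13.13 and 12.99 in wild-type and 13.24 and 13.15 in null channels at E11.5. It rose by 0.74 in wild type and 0.79 in the null (1.70-fold; adjusted p = 0.0060). The genotypes overlapped or lay close at each stage for these 3 probes, and the stages did not overlap. The other 2 of the 5 Hist3 probes, both named Hist3h2a, were not called. A_51_P441377, whose clone RefSeq lists under the same pseudogene, was 0.15 higher in wild type and 0.37 in the null (limma adjusted p = 0.0666). A_52_P184352 moved in opposite directions in the genotypes, as given above. The median of the 5 Hist3 probes was 0.77, against 0.083 over all histone probes, and 0.076 over the 24 Hist1 and -0.067 over the 5 Hist2 probes.

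Over all histone probes, 10 of 35 (28.6%) changed between the stages, against 42.4% of all tested probes. Of the 10, 7 rose (19.5% of all probes did) and 3 fell (22.9% of all). Among H2B probes, 5 of 8 rose and none fell. Besides the 2 Hist3 probes, these were Hist1h2ba (H2bc1, by 0.55 in wild type and 0.65 in the null, limma adjusted p = 0.0082), Hist1h2bm (H2bc14, by 0.42 and 0.53, adjusted p = 0.0118) and Hist1h2bk probe A_52_P388224 (H2bc12, by 0.40 and 0.52, adjusted p = 0.0127). The profiles of Hist1h2bk and Hist1h2bm differed by at most 0.041 over the 8 channels, and both were within 0.15 of Hist1h2ba, so 1 RNA may lie behind several of these calls. The other Hist1h2bk probe was 0.11 higher in wild type and 0.37 in the null and was not called (adjusted p = 0.0978).

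Hist1h1c, a linker histone, rose by 0.22 in wild type and 0.47 in the null (adjusted p = 0.0417). The 3 probes that fell were all H2A. Hist2h2aa1 had 11.16 and 11.07 in wild-type and 10.97 and 11.15 in null channels at E9.5, and 10.41 and 10.43 in wild-type and 10.64 and 10.71 in null channels at E11.5, so the stages did not overlap. It fell by 0.70 in wild type and by 0.39 in the null (limma adjusted p = 0.0198). Hist1h2ai was lower by log2 differences of -0.62 and -0.23 (adjusted p = 0.0480), and Hist1h2ae (H2ac8) by -0.43 and -0.24 (adjusted p = 0.0326). None of the 3 H3 and 7 H4 probes changed with stage in both genotypes, including the brightest of each (Hist2h3c1 at -0.07 and Hist1h4f at 0.27). For Hist1h4i the opposite directions in the genotypes left a mean of 0.07 (adjusted p = 0.932).

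**Figure D4:**
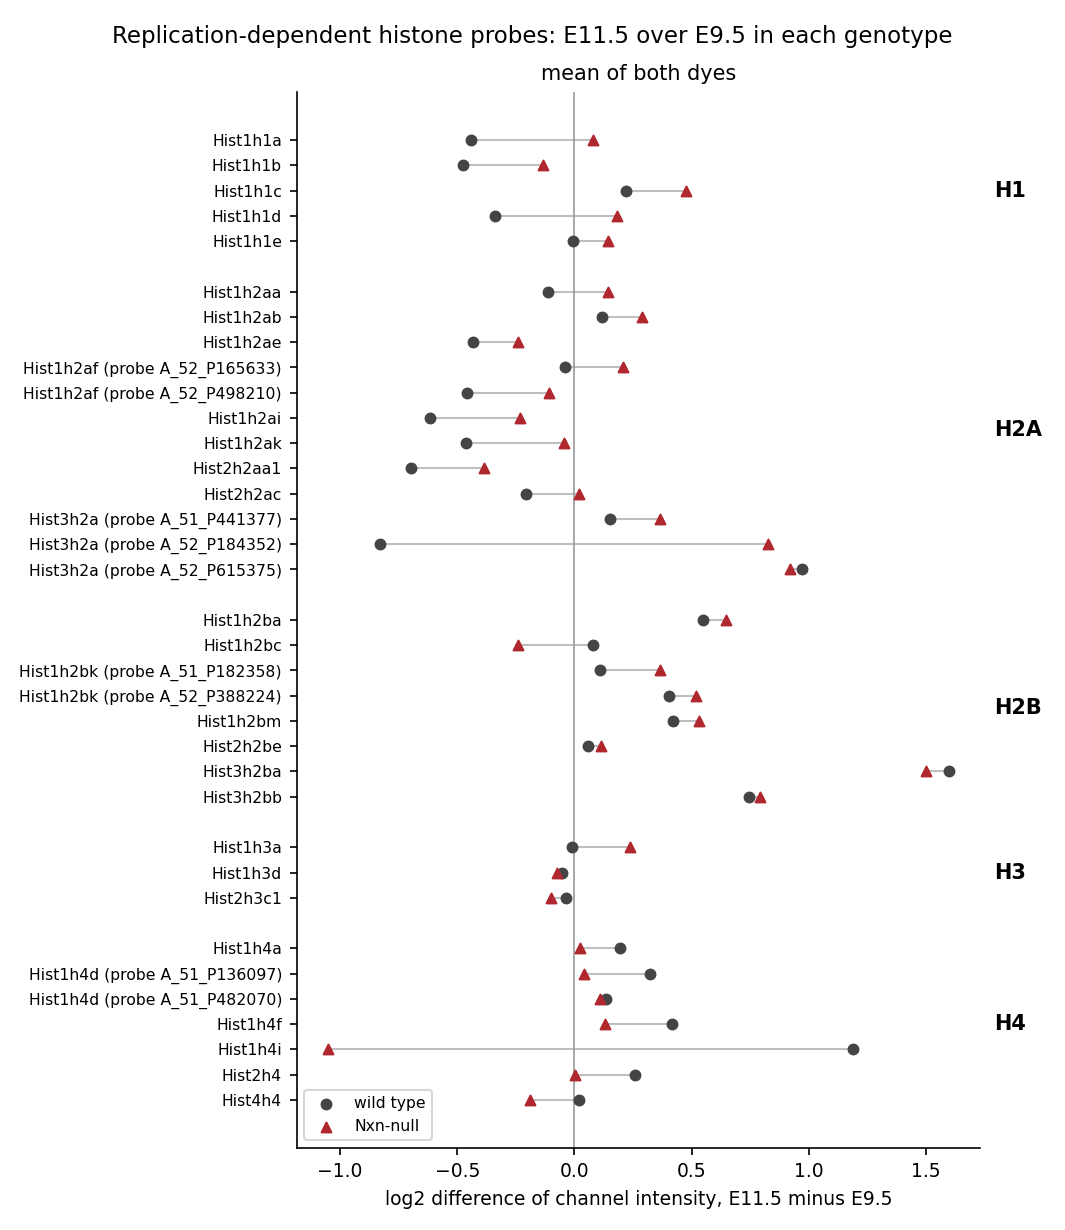
Log2 difference of normalized channel intensity, E11.5 minus E9.5 (horizontal axis, mean of both dyes), of the 35 tested histone probes in wild-type (circles) and Nxn-null (triangles) embryos, grouped by class. Hist3h2ba lies at 1.60 and 1.50, and Hist1h4i and Hist3h2a probe A_52_P184352 lie on opposite sides of 0 in the genotypes.

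The median change over the 35 histone probes was 0.083, against -0.035 over all tested probes, and with no normalization between arrays it turned to -0.123, against 0.086 over all. Under that setting 8 histone probes rose and 9 fell. The share of all tested probes called under it is not given, so these counts do not set the histone probes apart from all probes. The changes named above for Hist3h2ba, Hist3h2bb, Hist3h2a A_52_P615375, Hist1h2ba, Hist1h2bm, Hist1h2bk A_52_P388224 and Hist2h2aa1 were called under all alternatives run for them. With no normalization between arrays, though, the change was 0.227 for Hist1h2bm (0.478 as reported), 0.232 for Hist1h2bk A_52_P388224 (0.462) and 0.498 for Hist3h2bb (0.769). The p-values for E11.5 over E9.5 are too small, because anything that shifts an array as a whole is left out of the error of that fit. E11.5 over E9.5 had 1 sign in both genotypes and both dyes for 17 of 35 histone probes, against 66.6% of all, and opposite signs in the genotypes for 11 of 35, against 16.5% of all.

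Genes that work with the histones gave 4 further lists, each gene counted by its brightest probe. Their calls come from the main fits, with the dye term for genotype ratios, and were not recomputed under other settings. The replication and S phase list, with enzymes and loading factors of DNA replication, had 26 of 28 genes tested. Between the stages 19 of the 26 fell (22.9% of all probes did) and none rose (19.5% of all), with a median of -0.32. Ccne2, a cyclin of S phase entry, fell by 1.05 in the null and by 0.78 in wild type (limma adjusted p = 0.00733). Rfc3, a subunit of the clamp loader, fell by a mean of 0.78 (adjusted p = 0.00593), Mcm3, a helicase subunit, by 0.74 (adjusted p = 0.00897), Pcna, the sliding clamp, by 0.68 (adjusted p = 0.00677) and Cdc6, a licensing factor, by 0.65 (adjusted p = 0.00680). At E9.5, 4 of the 26 were higher in the null, against 8.8% of all probes. Mcm3 had 0.40 and 0.12 on the arrays (mean 0.26) and Mcm5 0.09 and 0.34 (mean 0.21). E2f1 had opposite signs, 0.50 and -0.10 (mean 0.20), and Uhrf1 had 0.09 and 0.29 (mean 0.19). Mcm6 was lower at -0.17 and -0.31 (mean -0.24), and 13.5% of all were lower. At E11.5 none was called, against 8.48% of all probes. Between the stages, 7 of the 35 histone probes rose (20%, near the 19.5% of all) and 3 fell (8.6%, against 22.9% of all). As given above, this split changed with no normalization between arrays.

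The histone chaperones, which carry histones to DNA, had 17 of 17 genes tested, and 9 fell between the stages (22.9% of all probes did) and none rose (19.5% of all), with a median of -0.32. Supt16h, a subunit of the complex FACT, fell by 0.98 (adjusted p = 0.00550), Nap1l1, a chaperone of H2A and H2B, by 0.74 (adjusted p = 0.00603), Chaf1b, a subunit of chromatin assembly factor 1, by 0.70 (adjusted p = 0.00683), Hat1, which acetylates new H4, by 0.70 (adjusted p = 0.00648) and Npm1 by 0.48 (adjusted p = 0.00995). At E9.5, 3 were higher in the null (8.8% of all probes were) and none was lower (13.5% of all). Ipo9 had 0.36 and 0.17 on the arrays (mean 0.26), Chaf1a 0.18 and 0.23 (mean 0.21) and Supt16h 0.12 and 0.25 (mean 0.19). At E11.5 only Supt16h was called, higher at 0.30 (adjusted p = 0.00505; 3.16% of all probes were higher).

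The list for histone gene transcription and RNA processing had all 19 genes tested. Between the stages 8 fell (22.9% of all probes did) and 1 rose (19.5% of all), with a median of -0.21. Cstf2, a cleavage factor shared with polyadenylation, fell by 0.71 (limma adjusted p = 0.0103) and Casp8ap2, a component of histone locus bodies, by 0.52 (adjusted p = 0.0128). Ncbp2 and Ncbp1, which form the nuclear cap-binding complex, fell by 0.42 (adjusted p = 0.0287) and 0.33 (adjusted p = 0.0234), and Srrt, a partner of that complex, rose by 0.33 (adjusted p = 0.0206). Slbp, the stem-loop binding protein, named here for its role after its values were seen, was not called at either stage between the genotypes (log2 ratio 0.03 for E9.5, -0.02 for E11.5) and fell by 0.28 between the stages (adjusted p = 0.0299).

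In the same list, Zfp473, a zinc finger protein of the histone 3′ end machinery, was higher in the null at E9.5 and lower at E11.5. Its log2 ratio was 0.61 and 0.46 on the arrays at E9.5 (mean 0.53, limma adjusted p = 2.55e-06) and -0.50 and -0.60 at E11.5 (mean -0.55, adjusted p = 4.41e-06). Npat, the coactivator of histone gene transcription, had -0.03 and -0.44 on the arrays at E9.5 (mean -0.24, adjusted p = 0.0132). Cstf2 had -0.05 and -0.45 (mean -0.25, adjusted p = 0.0114). Upf1, which acts in histone mRNA decay, had -0.0061 and 0.44 (mean 0.22, adjusted p = 0.0209). Cpsf1 had 0.10 and 0.31 (mean 0.21, adjusted p = 0.0234). In all, 5 of 19 were higher (8.8% of all probes were) and 2 lower at E9.5, the latter near the 13.5% of all probes. At E11.5, 2 of 19, Zfp473 and Sympk (-0.32, adjusted p = 0.00252), were lower (5.31% of all probes were) and none was higher (3.16% of all).

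The list of replacement histones and variants, with genes outside the replication-dependent clusters, had all 12 genes tested. At E9.5, 3 of 12 were higher in the null (8.8% of all probes were) and none lower (13.5% of all), with a median of 0.093. H1fx, a linker histone, had 0.47 and 0.07 on the arrays (mean 0.27, limma adjusted p = 0.00359). The others were macroH2A genes, H2afy2 at 0.16 and 0.34 (mean 0.25, adjusted p = 0.0168) and H2afy at 0.17 and 0.19 (mean 0.18, adjusted p = 0.0479). At E11.5, 2 of 12 were higher (3.16% of all probes were) and none lower (5.31% of all). These were H1fx (0.45 and 0.04, mean 0.24, adjusted p = 0.0173) and H1f0, another linker histone (0.24 and 0.19, mean 0.21, adjusted p = 0.0393). Between the stages 3 of 12 fell and 2 rose, near the 22.9% and 19.5% of all probes. Cenpa, the centromeric H3, fell by 0.41 (adjusted p = 0.0158), H1f0 by 0.38 (adjusted p = 0.0152) and H2afz by 0.32 (adjusted p = 0.0325). H1fx rose by 0.30 (adjusted p = 0.0245) and H2afv by 0.26 (adjusted p = 0.0343).

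The 9 histone probes that did not pass the filter were 2 of Hist1h1d, 1 of Hist1h1t (H1f6), Hist1h2ac (H2ac6), Hist1h2be (H2bc6), Hist1h2bc and Hist4h4 each, and both of Hist2h2aa2 (H2ac19). Their channels were not well above background on both arrays of any group, so only a bound can be given there. Among the tested probes, Hist1h2ae was above background on 1 of the 2 wild-type channels at E11.5, and the others were so in every channel. No histone probe was saturated or marked as an outlier.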

How the data were processed

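Each of the 4 arrays held cRNA made from total RNA by linear amplification with an oligo-dT primer carrying a T7 promoter, per the labels' protocols. The deposited scanner files hold linear spot intensity and local background per channel, per the file headers, as written by Agilent Feature Extraction (9.1.3.1 in the headers, 9.5.3.1 in the submitters' processing notes). The same files hold a log10 ratio of red over green, per the file headers, which the software set to 0 for 21.3% to 29.9% of probes on an array. The deposited value table matched the log10 ratio of the processed signals within 0.0001 for 99.995% to 100% of 40929 probes after a change of sign where Cy3 held the null RNA, so its direction is null over wild type and no further centring was found. Its column medians were -0.0136 and 0.0408 (E9.5) and -0.0347 and 0.0210 (E11.5).

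Mean intensity was corrected with normexp (offset 50) and normalized by loess within arrays with control spots given no weight. R 4.3.3 was used with limma 3.58.1 and the data.table package 1.17.8. Spots of a probe were averaged and outlier spots left out. A probe was tested if both arrays of some stage called 1 genotype's channel well above background, and every probe was tested by itself. Ratios at a stage came from a limma fit of the 4 arrays with stage and dye terms (1 residual degree of freedom, 18.0 prior), and E11.5 over E9.5 from single channels after Aquantile normalization, with the 2 genotypes as replicates. The Benjamini-Hochberg adjustment covered all 24994 probes, with calls at 0.05. The fits were tested on simulated data.

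Named were all probes called or at least 2-fold apart, up to 10 per comparison and direction, the H4c9 probe, the brightest probe of each class, and up to 5 called genes per list. The histone probes and the gene lists were chosen with earlier results of these data known. Current symbols and promoters came from RefSeq tables of build GRCm38.p6, with 36 of the 44 probes named by accession and 8 by an older symbol. Probe and protein sequences were not used here. Plots used matplotlib 3.10.9 (Python 3.11.15).

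Each array had 43379 gene spots, of which 48.1% to 70.3% per channel were above background and 0 to 7 saturated. The ratios of dye-swapped arrays correlated across the tested probes at 0.42 (E9.5) and 0.24 (E11.5), and arrays of the same dye orientation at 0.35 and 0.38. Probes are not independent, and the number of arrays limits the precision.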

Additional observations from a re-analysis of the deposited data

Results flagged for a closer look

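The genotype ratio (log2, Nxn-null over wild type, E11.5 minus E9.5) differed between the stages for 10 histone probes, by limma on the 4 arrays with a dye term. The H4 probe Hist1h4i (A_51_P505521) went down by a difference of -2.24 (adjusted p = 3.23e-13), from a 5.13-fold excess at E9.5, and the Hist3h2a probe A_52_P184352 went up by 1.66 (adjusted p = 5.53e-11). These 2 kept their call under all 12 alternatives run for each, with adjusted p up to 0.0389 and 0.0477.

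Of the other 8, the difference was 0.523 for Hist1h1a, 0.519 for Hist1h1d, 0.338 for Hist1h1b, 0.418 for Hist1h2ak, 0.385 for Hist1h2ai, 0.353 for Hist1h2af (A_52_P498210), 0.308 for Hist2h2aa1 and -0.320 for Hist1h2bc. Their adjusted p-values ran from 3.75e-04 (Hist1h1a) to 0.0350 (Hist2h2aa1), and each lost its call without the dye term, which is also missing from the fits that leave out 1 of the 4 arrays.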

How the results depend on the processing

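The number of histone probes beyond array spread at E9.5 (12) dropped to 2 with the Feature Extraction log ratio, the value table, median centring and no dye term, and to 2 (range 2 to 2) with each array left out. At E11.5 the count of 6 became 1 with an offset of 10 or no filter on dim probes, and 0 with the log ratio, the value table, median centring, no dye term and each array left out (range 0 to 0). The count of ratios that differed between stages (10, of which 8 upwards) became 6 with an offset of 10 (5 upwards) and 2 with the log ratio, the value table, median centring, no dye term and each array left out (1 upwards, range 2 to 2). Fits without an array also lack the dye term, so these settings are not separate checks, and the lone array of a stage is assumed to vary like the others. Calls over all tested probes dropped as well. At E9.5 their share of 22.3% fell to 6.15% (log ratio), 5.19% (value table) and 3.68% (median centring), near the 5.7% of the histone probes. At E11.5 it fell from 8.48% to 5.29% (offset of 10), 0.192% (log ratio), 0% (value table) and 1.19% (median centring). For the difference between stages it fell from 11.7% to 7.8%, 1.21%, 0.716% and 2.04% in the same order. The cause of the drops was not tested. The median ratio at E11.5 was 0.275 with median centring, against 0.082 over all probes. The count for E11.5 over E9.5 (7 higher, 3 lower, with 42.4% of all probes called) became 17 with no normalization between arrays (8 higher, 9 lower). There the median was -0.123, and the share of all probes called is not given. With median centring the count was 8 higher and 2 lower, with 39.9% of all probes called. The median for E11.5 over E9.5 was 0.0384 without the filter and 0.0371 in Cy5 channels. At E9.5 the ratio turned sign without replicate 1 for Hist1h4a (-0.0033 to 0.479 over the arrays left out), Hist2h4 (-0.0058 to 0.689) and Hist4h4 (-0.080 to 0.755), and without replicate 2 for Hist1h1d (-0.681 to 0.160). Over the named probes, 283 recomputed values kept direction and side of the threshold, 222 fell short of it and 4 turned. Leaving out the 2 probes 2-fold apart at E9.5, an alternative chosen after seeing the data, left 10, 6, 8 and 10 calls. The shared effect stayed at 0 calls. The labels number no replicates. Each ratio pairs the genotypes on 1 array, and the dye term also acts as a block over arrays of the same orientation, so the fit without it is the one with no such block. A scan block was not run, since the 4 arrays share 1 slide and 1 scan time in the headers. The log ratio and the value table give no E11.5 over E9.5 value. With 2 arrays a stage, differences of the size of the dye gaps were not resolved.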
